A study of Homo sapiens with 2 samples.

Results

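The nuclear genes of respiratory complexes II, III and IV, of cytochrome c and of ATP synthase were followed from total RNA to ribosome-protected RNA in SW13 cells. Members were chosen by gene symbol as 39 established subunit genes, and each matched exactly 1 of the 23608 gene rows of the deposited table. They comprise 4 genes of complex II, 9 of complex III, the gene of cytochrome c, 10 of complex IV and 15 of ATP synthase, spread over 20 chromosomes. SW13 is a long-established human line derived from an adenocarcinoma of the adrenal gland. The cells had been transfected at 80% confluence with 5 µg of Add2-Mhrt779 and Add2-Hotair, which were given to overexpress murine non-coding RNAs, and were collected 48 hours later. One group is RNA sequencing of total RNA and the other is ribosome profiling, which sequences the fragments that ribosomes shield from nuclease. Both groups carry the transfection, and each has 1 library with no replicate. The FPKM of a gene (fragments corrected for the length of its transcript and the size of the library) is called its RNA level in the first group and its footprint level in the second.

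These complexes make up the later part of the respiratory chain in the inner mitochondrial membrane. Complex II oxidises succinate and passes electrons to ubiquinone, complex III passes them on to the soluble carrier cytochrome c, and complex IV hands them to oxygen. Proton pumping by complexes III and IV drives ATP synthase, a rotary enzyme whose catalytic F1 head sits on the membrane-bound Fo part. Complex II is encoded wholly in the nucleus, whereas complexes III and IV and the Fo part of ATP synthase also hold subunits made inside mitochondria. The members are therefore read by cytosolic ribosomes and their proteins are imported.

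The labelled cell type was checked on marker genes. Of 10 adrenal cortex markers 9 were listed at 0 in both libraries, and NR0B1 had an RNA level of 1.60 FPKM and a footprint level of 1.25 FPKM. Vimentin (VIM) had 490.2 and 707 FPKM, the keratins KRT8 and KRT18 were also present, and EPCAM and CDH1 were listed at 0. SMARCA4 had 3.99 and 0.68 FPKM and SMARCA2 had 1.72 and 1.75 FPKM. Among markers of blood and heart muscle, PTPRC, MYL2 and TNNT2 were listed at 0 and the globin gene HBB had 691 and 766 FPKM. Of 9 other globin rows 8 were listed at 0 in both libraries, HBD had 6.78 FPKM in RNA sequencing alone, and the part of HBB in the results was not tested. Small RNA genes took 88.7% of the summed RNA levels and 96.8% of the summed footprint levels. Of the FPKM outside them the 39 members held 0.925% and 2.11%, and the number of reads is unknown.

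Most of the 39 subunit genes lay above the median gene in ribosome profiling relative to RNA sequencing. Each gene was given the log2 of (footprint level + 1) over (RNA level + 1), less the median of that quantity over the 2734 tested genes, whose FPKM averaged 10 or more in the 2 libraries. This centred log2 ratio is 0 for the median gene, and the added 1 FPKM understates the ratio of low genes. Folds above or below the median gene are folds of this ratio and not of FPKM. Over all 39 members the median centred log2 ratio was 0.51, or 1.42-fold above the median gene. Of the members 31 were above 0, COX4I1 by only 0.00026, and 8 below. A ratio 2-fold or more above the median gene was reached by 10 members (25.6%), none lay 2-fold or more below it, and 29 were between. For comparison, 10.0% of the 2245 protein-coding genes tested lay 2-fold or more above, 14.4% lay 2-fold or more below and 51.6% lay above 0, and their median was 0.040. With non-coding genes included these shares were 13.1% above and 19.7% below. No p-value is given because each group is a single library. The groups differ in the assay and not in a condition of the cells. In bulk libraries the number of cells holding a transcript and its amount per cell cannot be told apart. With a minimum mean FPKM of 1 the count at least 2-fold above was 24 of 39, against 14.7% of protein-coding genes, and with a minimum of 30 it was 6 of 27, against 8.76%. With no filter it was 24 of 39, against 15.8%. Without centring it was 15 of 35, against 21.9%, and with each library scaled to its FPKM outside small RNA genes it was 16 of 35, against 25.0%.

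The filter kept 35 members. SDHC, UQCRQ, UQCR11 and CYCS had a mean under 10 FPKM, and UQCRC2 and UQCRB passed through ribosome profiling alone, with RNA levels of 6.78 and 5.77 FPKM. UQCRB is among the members counted as 2-fold or more above the median gene. The median centred ratio over the 35 was 0.52. Just above the 2-fold limit stood ATP5C1 at 2.15-fold and UQCRFS1 at 2.17-fold, and just below it ATP5A1 at 1.93-fold, ATP5O at 1.93-fold and COX7C at 1.92-fold.

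**Figure D1:**
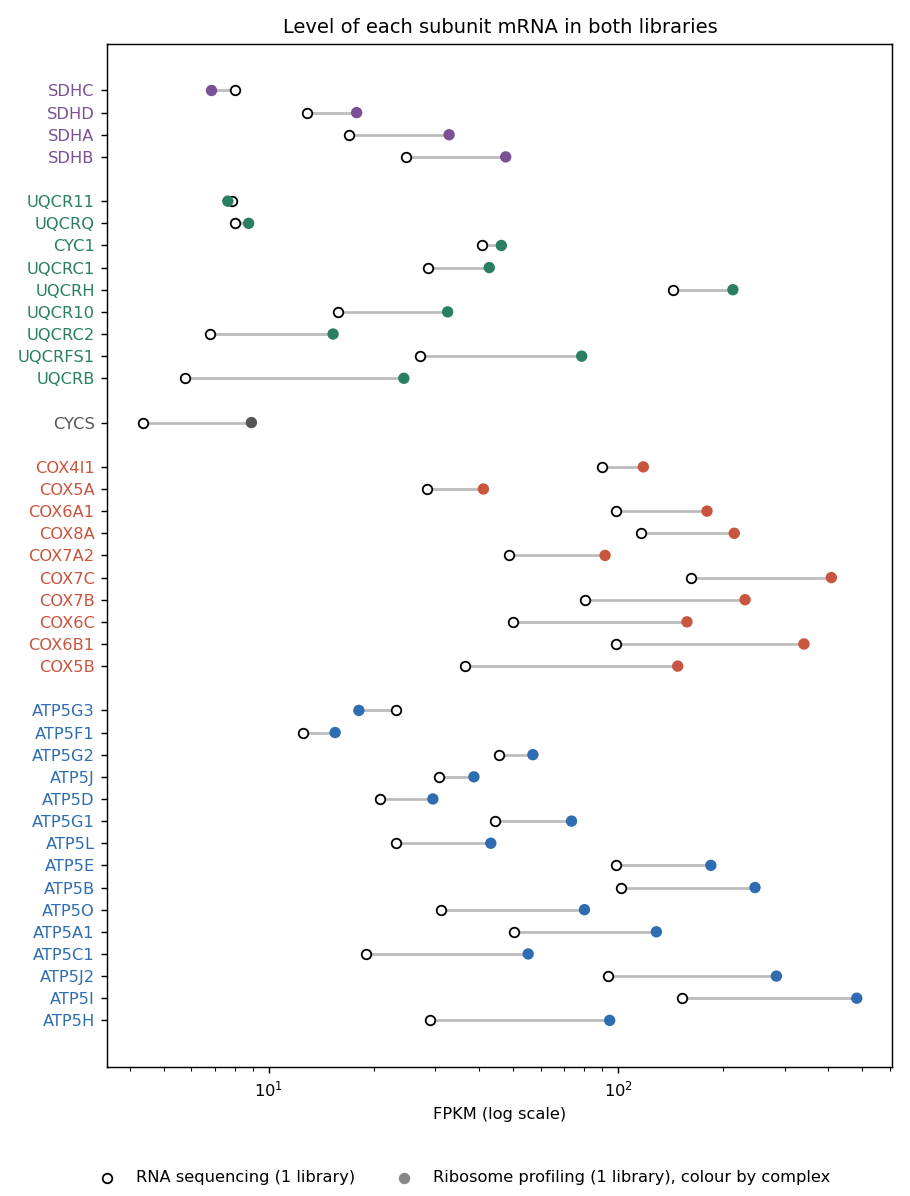
FPKM of each of the 39 subunit mRNAs on a log axis, with open circles for RNA sequencing and filled circles for ribosome profiling (1 library each), ordered by centred log2 ratio within each complex. The filled circle lies to the right of the open one in all genes except SDHC, UQCR11 and ATP5G3, and the complex IV genes start at 28.3 FPKM or more.

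Complex II held no gene past 2-fold in either direction, against 10.0% of tested protein-coding genes above and 14.4% below. Its catalytic subunits had higher ratios than its membrane anchors. SDHA, the flavoprotein that oxidises succinate, had an RNA level of 17.0 and a footprint level of 32.8 FPKM, 1.44-fold above the median gene. SDHB, the iron-sulfur protein that carries the electrons onward, had 24.7 and 47.7 FPKM, 1.45-fold above. The membrane anchors, which bind ubiquinone, were lower on the same scale. SDHD had 12.9 and 17.8 FPKM, 1.04-fold above the median gene, and SDHC had 7.999 and 6.85 FPKM, at a centred log2 ratio of -0.58. The median centred log2 ratio was 0.29 over all 4 genes and 0.52 over the 3 that passed the filter.

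Complex III spanned the widest range of RNA levels, and its median centred log2 ratio was 0.18 over all 9 genes and 0.61 over the 7 that passed the filter. The filter itself raised this median, because UQCRC2 and UQCRB passed through ribosome profiling alone, and UQCRQ and UQCR11, which lay below 0, did not pass. UQCRFS1, the Rieske iron-sulfur protein, had an RNA level of 27.1 and a footprint level of 78.7 FPKM, 2.17-fold above. CYC1, the cytochrome c1 that passes electrons to cytochrome c, had 40.7 and 46.3 FPKM and lay 1.15-fold below the median gene. These catalytic genes thus stood on opposite sides of it. Of the core proteins, UQCRC1 had 28.6 and 42.8 FPKM, 1.13-fold above, and UQCRC2 had 6.78 and 15.3 FPKM, 1.60-fold above.

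Among the 5 small accessory genes of complex III, UQCRB stood highest of the complex by ratio. It lies at hg19 positions 97238904 to 97247862 of chromosome 8 and had an RNA level of 5.77 and a footprint level of 24.4 FPKM, 2.86-fold above the median gene. UQCRH, the hinge protein, was by far the most abundant, with 143.5 and 213 FPKM, and lay 1.13-fold above. UQCR10 had 15.8 and 32.5 FPKM, 1.52-fold above. UQCRQ and UQCR11 were low in both libraries, with 8.02 and 8.75 FPKM and with 7.83 and 7.63 FPKM, at centred log2 ratios of -0.28 and -0.42. The gene of cytochrome c, CYCS, the carrier between complexes III and IV that also acts in apoptosis, had the lowest RNA level of all members at 4.36 FPKM. Its footprint level was 8.92 FPKM, and its ratio of footprint to RNA level lay 1.41-fold above that of the median gene.

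Complex IV held 10 genes, of which 4 lay more than 2-fold above the median gene, against 10.0% of tested protein-coding genes. Its median centred ratio was 0.72, or 1.65-fold, the highest of the complexes. With a minimum mean of 30 FPKM the order turned, with 0.55 for complex IV and 0.74 for ATP synthase, as it did with near-identical copies added, at 0.72 and 0.88. COX5B, a zinc-binding subunit (chromosome 2, hg19 positions 98262521 to 98264657), had an RNA level of 36.5 and a footprint level of 148 FPKM, 3.04-fold above and the highest of all 39. COX6B1, which faces the intermembrane space, had 98.5 and 341 FPKM, 2.62-fold above, and COX6C had 50.1 and 158 FPKM, 2.37-fold above. COX7B had 80.6 and 231 FPKM, 2.17-fold above. The 4 genes are unlinked, on chromosomes 2, 19, 8 and X.

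The remaining complex IV genes formed a graded series. COX7C was the most abundant member in RNA sequencing at 162 FPKM, had 408 FPKM in ribosome profiling, and lay 1.92-fold above the median gene. COX7A2, COX8A and COX6A1 lay 1.42-fold, 1.41-fold and 1.38-fold above, with RNA levels of 48.8, 116 and 98.8 FPKM and ribosome profiling levels of 91.8, 215 and 179.8 FPKM. COX5A and COX4I1, which join the catalytic subunit COX1 early in assembly, were lowest. COX5A had 28.3 and 41.2 FPKM, 1.10-fold above, and COX4I1 had 89.97 and 118 FPKM and a centred log2 ratio of 0.00026. It was below 0 in 7 of 14 alternative settings, down to -0.41, and COX5A was at -0.042 with a minimum mean of 30 FPKM.

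**Figure D2:**
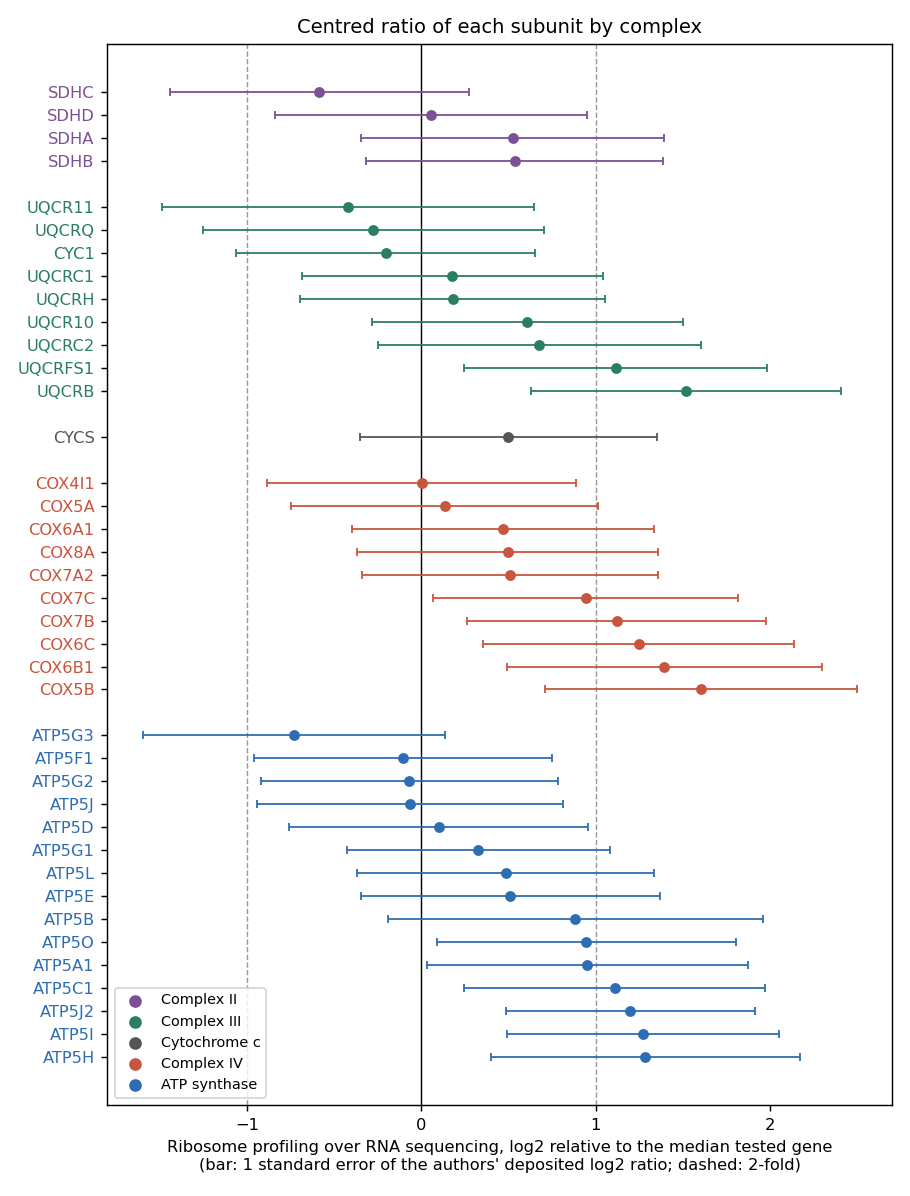
Centred log2 ratio of footprint level to RNA level for each subunit, grouped and coloured by complex, where 0 is the median tested gene, dashed lines mark 2-fold and bars are 1 standard error of the authors' deposited log2 ratio. Points run from -0.73 for ATP5G3 to 1.60 for COX5B, and the bars of most genes within a complex overlap.

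ATP synthase genes are given by the part of the enzyme they build, and ratios ranged as widely within some parts as between them. In the F1 head, the subunits that bind nucleotide were both high. ATP5B, the catalytic beta subunit, had an RNA level of 102 and a footprint level of 247 FPKM, 1.84-fold above the median gene, and ATP5A1, the alpha subunit, had 50.3 and 129 FPKM, 1.93-fold above. In the central stalk, which turns inside the head, ATP5C1 (gamma) had 18.96 and 55.3 FPKM, 2.15-fold above. ATP5D (delta) had 20.8 and 29.5 FPKM, 1.07-fold above, and ATP5E (epsilon) had 98.5 and 184 FPKM, 1.42-fold above.

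The 3 genes of the c ring, which encode the same mature proton-carrying protein with different import signals, lay lowest of the ATP synthase roles. ATP5G1 had levels of 44.4 and 73.6 FPKM, 1.25-fold above the median gene. ATP5G2 had 45.5 and 57.04 FPKM, 1.05-fold below. ATP5G3 (chromosome 2, positions 176040986 to 176046490) had 23.2 and 18.1 FPKM and lay 1.66-fold below, at the lowest ratio of all 39 members. Together the 3 genes summed to 113 FPKM by RNA level and 149 FPKM by footprint level. The head genes ATP5A1 and ATP5B together summed to 152 and 375 FPKM on the same scales.

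The peripheral stalk, which holds the head still, was split. ATP5H (subunit d) had 29.01 and 94.6 FPKM, 2.43-fold above the median gene, and ATP5O, the oligomycin sensitivity protein, had 31.2 and 80.1 FPKM, 1.93-fold above. ATP5J (F6) had a similar RNA level of 30.7 FPKM but 38.7 FPKM in ribosome profiling, 1.05-fold below, and ATP5F1 (subunit b) had 12.6 and 15.5 FPKM, 1.08-fold below. The small membrane subunits, which help ATP synthase form dimers, held the highest median level. ATP5I (e, chromosome 4, positions 666225 to 668127) had 152 and 483 FPKM, 2.41-fold above, the highest ribosome profiling level of all members. ATP5J2 (f) had 93.9 and 284 FPKM, 2.29-fold above, and ATP5L (g) had 23.2 and 43.2 FPKM, 1.40-fold above. By role, the median ribosome profiling level was 284 FPKM for these membrane subunits, 188 for the head, 59.4 for the peripheral stalk, 57.04 for the c ring and 55.3 for the central stalk. With ribosome profiling FPKM rescaled from transcript to coding length the head, at 369 FPKM, stood above the membrane subunits, at 328 FPKM. The head median is of 2 genes, and the transcript form used for ATP5A1 has a coding share of 28.5%, against 86.3% for ATP5B. The rescaling therefore raised ATP5A1 far more than ATP5B.

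**Figure D3:**
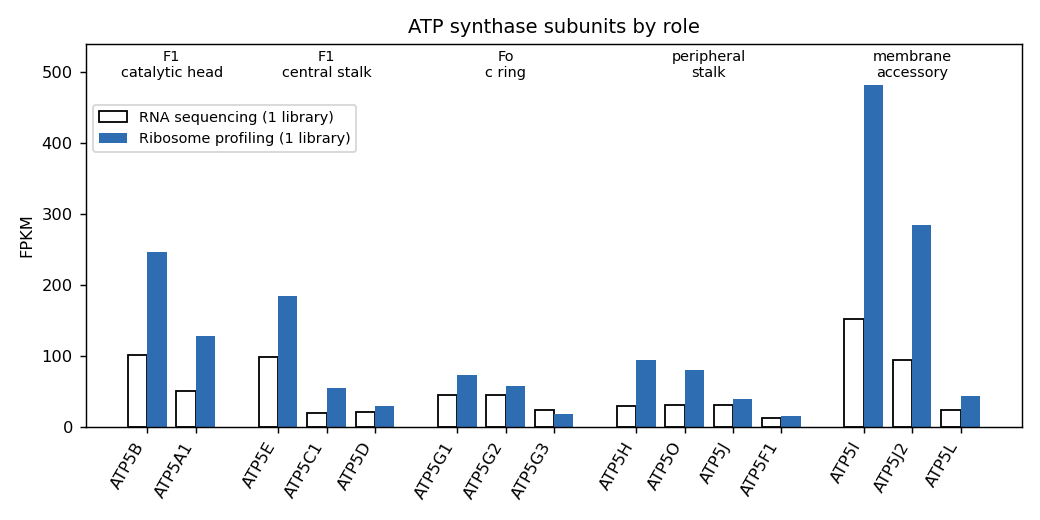
RNA level (open bars) and footprint level (filled bars) of the 15 ATP synthase genes in FPKM, 1 library each, grouped by the part of the enzyme they build. ATP5I reaches 483 FPKM in ribosome profiling, and ATP5G3 is the only one of the 15 whose filled bar is shorter than its open bar.

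Levels of the members ran in nearly the same order in both libraries. Across the 39 genes the log2 FPKM in the 2 libraries had a Pearson r of 0.94 and a Spearman rho of 0.94. Across 2235 tested protein-coding genes above 0 in both libraries, r was 0.71 and rho 0.62. These correlations are across genes of the same 2 libraries, which are not independent replicates. Levels within the complexes were more spread in ribosome profiling than in RNA sequencing or about equally spread. The SD of log2 FPKM over subunits was 0.68 in RNA sequencing and 1.22 in ribosome profiling for complex II, 0.80 and 0.95 for complex IV, 1.05 and 1.45 for ATP synthase, and 1.53 in both for complex III. Across the tested protein-coding genes it was 1.45 and 1.68, so this widening was not limited to these complexes.

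Members were also ranked by level among the 2245 tested protein-coding genes. Of the 35 members with a rank, 30 stood higher in ribosome profiling than in RNA sequencing. The share of all 2245 genes that did so was not computed, so the count is not set against a background. ATP5I moved from rank 141 to rank 56, COX7C from 133 to 70 and COX6B1 from 198 to 90. ATP5H moved from rank 682 to 324 and COX5B from 536 to 211. ATP5G3 moved the other way, from rank 887 to 1373, as did CYC1, from 478 to 582. More abundant members tended to have the higher ratios: r between the centred ratio and log2 mean FPKM was 0.53 across the 39 members and 0.17 across 2240 tested protein-coding genes, both measures being made from the same FPKM values. With RNA FPKM alone it was 0.30 across the members. The part of abundance in the ratios was not tested.

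The statistics of the authors' own model imply wide errors for every subunit. Of the 39 log2 ratios in the authors' deposited table, which are not centred, 36 were above 0. The share of all rows above 0 was not computed. Before centring, the median tested gene itself lay at 0.39 on the ratio with 1 FPKM added. None of the 39 was called significant, against 1.30% of rows with the status OK. The authors' deposited table gave the members q-values between 0.238 and 0.994. Standard errors, taken as the authors' deposited ratio over their statistic, ran from 0.71 to 1.07 with a median of 0.87. The 95% interval of the authors' deposited ratio lay above 0 for 5 members (12.8%), UQCRB, COX5B, COX6B1, ATP5I and ATP5J2, against 3.90% of rows with the status OK. Their log2 ratios in the authors' deposited table were 2.08, 2.02, 1.79, 1.66 and 1.60.

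Differences between subunits of one complex were within these errors in all 8 pairs taken. By the authors' deposited table ATP5G1 exceeded ATP5G3 by 1.09 in log2 ratio, and its 95% interval, taking the errors as independent, ran from -1.16 to 3.34. For COX5B minus COX4I1 it was 1.63 in the authors' deposited table, with an interval from -0.84 to 4.09 computed in the same way. For UQCRFS1 minus CYC1, ATP5H minus ATP5F1 and SDHB minus SDHC the differences in the authors' deposited table were 1.35, 1.40 and 1.17, and every interval held 0. ATP5B minus ATP5A1 was -0.078 there, with an interval from -2.85 to 2.69. These pairs were picked with their values known, and these errors hold no spread between cultures.

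Several members have near-identical copies whose rows may have taken some of their reads, so their own values are uncertain. UQCRHL, a copy of UQCRH, had 77.4 and 216 FPKM, and UQCRH summed with it lay 1.48-fold above the median gene instead of 1.13-fold. ATP5EP2, a pseudogene of ATP5E, had an RNA level of 89.7 and a footprint level of 295 FPKM, and the sum lay 1.94-fold above instead of 1.42-fold. UQCRBP1 had 20.5 and 61.0 FPKM, more than UQCRB itself, and the sum lay 2.42-fold above. CYCSP52 was listed at 0 in RNA sequencing and had 9.06 FPKM in ribosome profiling, and with it CYCS lay 2.70-fold above the median gene. SDHA summed with SDHAP1, SDHAP2 and SDHAP3 lay 1.11-fold above. With the copies added, 11 members in place of 10 lay 2-fold or more above the median gene. They were out of 36 that then passed the filter, against 10.1% of protein-coding genes. The member gained was CYCS, whose RNA level stayed at 4.36 FPKM, so it passed the filter through ribosome profiling alone. Its pass and its high ratio thus rest on the same footprint value, to which CYCSP52 added 9.06 FPKM.

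The table also places 8 members at a locus shared with other rows, where reads of overlapping genes cannot be told apart without strand. ATP5J shares its locus with GABPA, which encodes a transcription factor of respiratory genes and had 2.99 and 2.58 FPKM. ATP5J2 shares one with BUD31 at 25.7 and 35.6 FPKM, CPSF4 and PTCD1. ATP5B holds the small nucleolar RNAs SNORD59A and SNORD59B, which were listed at 0 in RNA sequencing and had 1688 and 3376 FPKM in ribosome profiling. ATP5E shares one with a readthrough row, SLMO2-ATP5E, at 15.7 and 27.8 FPKM. Of the 31 members with a locus of their own, 9 lay 2-fold or more above the median gene, against 10.0% of all tested protein-coding genes. The share among protein-coding genes with a locus of their own was not computed.

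Promoter sequence was searched for elements that respiratory genes are known for. RefSeq promoters (GRCh38.p14, 250 bases before to 50 after the gene start) matched 31 members, all but SDHC, CYC1, UQCRB, COX6C, ATP5B, ATP5D, ATP5G3 and ATP5J2. The GC-rich core motif of nuclear respiratory factor NRF1, spelled out in capitals in the first 5 windows printed here and open to any base between its GCGC and TGCGC letters, was found on either strand in 9 of 31, or 29.03%, against 15.3% of 1877 promoters of tested protein-coding genes and 6.28% of all 27305 promoters. The motif CCGGAAG of ETS factors such as GABPA was found in 14 of 31, or 45.2%, against 24.0% and 10.7%. The ubiquitous CCAAT box was found in 12 of 31, or 38.7%, against 42.2% and 35.7%. The first pair of motifs share no sequence of their own, and 3 members, ATP5I, SDHD and UQCR11, held both.

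The windows below hold motifs of members 2-fold or more above the median gene and of members near or below it. They are 30 bases each in GRCh38.p14, 5′ to 3′ on the strand of the gene, with the motif or its reverse complement in capitals. The same letters stand before genes of both kinds. UQCR11 and UQCRQ did not pass the filter, and the lowest members by ratio, ATP5G3 and SDHC, had no matched promoter.
UQCRFS1, chr19:29213163-29213192, minus strand: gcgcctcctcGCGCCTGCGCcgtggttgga
ATP5C1, chr10:7788145-7788174, plus strand: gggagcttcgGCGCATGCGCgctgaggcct
ATP5I, chr4:674431-674460, minus strand: cagcctttgtGCGCGTGCGCctcacgtgac
SDHD, chr11:112086753-112086782, plus strand: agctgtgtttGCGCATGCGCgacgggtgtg
UQCR11, chr19:1605472-1605501, minus strand: ccctccccgcGCGCGTGCGCgccgcggccg
COX5B, chr2:97646014-97646043, plus strand: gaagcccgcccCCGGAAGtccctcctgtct
ATP5H, chr17:75047052-75047081, minus strand: ccgggaagataCTTCCGGaaccagccctca
ATP5J, chr21:25735066-25735095, minus strand: tgccaggggacCCGGAAGcacttaccctcc
UQCRQ, chr5:132866577-132866606, plus strand: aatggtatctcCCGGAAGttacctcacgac

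These sites lay upstream of the gene start, the one of ATP5C1 22 bases and that of COX5B 37 bases before it. ATP5C1 and SDHD carry the same 10 motif letters, and their centred log2 ratios were 1.11 and 0.054. The median centred ratio of members with the NRF1-like motif was 0.61 and of those without it 0.50. For CCGGAAG these medians were 0.48 and 0.52. COX5B and ATP5J both hold CCGGAAG on the forward strand, at centred ratios of 1.60 and -0.066. A match in the window is a description of the letters and not of binding.

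A further element bears on translation itself. The TISU core, an initiator of translation in mRNAs with a short leader, contains the start codon. It was found in 3 of 31 members, or 9.68%, against 4.64% of promoters of tested protein-coding genes. In SDHB and UQCRC1 the element, in capitals, begins 10 and 23 bases after the gene start.
SDHB, chr1:17054002-17054031, minus strand: tcaggagccAAGATGGCGGCggtggtcgcc
UQCRC1, chr3:48609603-48609632, minus strand: tgcagctggAAGATGGCGGCgtccgtggtc
The third, UQCR10, has the same element with another base at the open position. By the GENCODE 29 transcript forms used for coding length, the leaders were 151 bases in SDHB, 417 in UQCRC1 and 30 in UQCR10. For SDHB and UQCRC1 these forms thus give a longer leader than the distances from the gene start used here. None of SDHB, UQCRC1 and UQCR10 was 2-fold above the median gene, with centred log2 ratios of 0.53, 0.18 and 0.61. Of the 28 members without the element 7 were, against 10.0% of tested protein-coding genes. The median centred ratio was 0.53 with the element and 0.50 without it, and 3 genes are too few to compare such counts.

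Most subunits are short proteins, which matters for a measure that divides by length. By GENCODE 29 the members encode from 51 residues (ATP5E) to 664 residues (SDHA), with a median of 136, against a median of 327 over 2240 tested protein-coding genes. The centred ratio showed little relation to coding length, at r = -0.041 across the 39 members and -0.013 across the 2240 genes. Of 22 members under 150 residues 7 (31.8%) lay 2-fold or more above the median gene, against 13.8% of tested protein-coding genes of that length. Of 17 longer members 3 (17.6%) did, against 9.18%. The medians of the shorter and longer members were 0.50 and 0.52. Ribosome footprints come mainly from the coding part of a transcript, which took a median of 45.2% of the transcript in the members and 57.03% in the 2240 genes. With ribosome profiling FPKM rescaled from transcript to coding length, the median over the 35 members that passed the filter was 0.72 and 13 of them were at least 2-fold above, against 17.4% of protein-coding genes on that scale, although the transcript forms behind the deposited values are unknown.

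**Figure D4:**
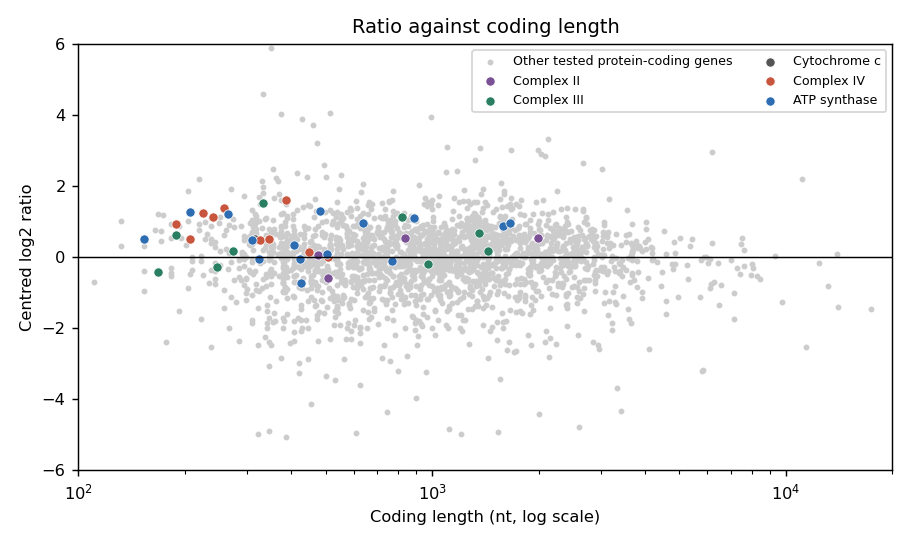
Centred log2 ratio against coding length (log axis) for the members, coloured by complex, and for 2205 other tested protein-coding genes in grey, of which 6 lie outside the plotted range. The members are spread from short to long coding lengths and lie mostly above 0 throughout.

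Other genes of the pathway were read from lists of known function. Complex I, which feeds electrons from NADH into the chain, had 34 tested genes with a median centred ratio of 0.60. Of these, 8 were at least 2-fold above and 1 at least 2-fold below, against 10.0% and 14.4% of tested protein-coding genes. Of the 8, 3 passed the filter through ribosome profiling alone, and the 1 below passed through RNA sequencing alone. NDUFS5 had 62.2 and 185 FPKM and NDUFS7, the highest, had 23.7 and 133 FPKM. NDUFA5, the lowest, had 16.9 and 9.62 FPKM. Complexes II to IV, cytochrome c and ATP synthase, at a median of 0.52 over the 35 members that passed the filter, thus lay close to complex I. The difference was not tested.

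Further subunits and the ATP synthase inhibitor had 5 tested genes with a median of 0.58. USMG5, a small ATP synthase subunit, had 18.9 and 59.2 FPKM, 2.31-fold above, and the inhibitor ATPIF1 had 56.8 and 112 FPKM, 1.49-fold above. COX7A2L, which resembles COX7A2 and joins complex III to complex IV in supercomplexes, passed the filter through RNA sequencing alone, with 27.96 and 9.48 FPKM, 3.62-fold below the median gene. COX7A2 itself lay 1.42-fold above. Of 7 tissue-restricted isoforms 5 were listed at 0 in both libraries, and the one that passed the filter was UQCRHL, described above as a copy of UQCRH.

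Most assembly factors lay under the filter. Of 32 rows 9 were tested, with a median of 0.48, 2 at least 2-fold above and none at least 2-fold below. Of the 9, 5 passed the filter through ribosome profiling alone, 1 of the 2 above among them, and the share of protein-coding genes above was 10.0%. PET100, needed for complex IV assembly, had 24.0 and 150 FPKM, 4.61-fold above the median gene, and COA3 had 12.8 and 8.56 FPKM, 1.89-fold below. None of 11 regulators of mitochondrial transcription and biogenesis reached a mean of 10 FPKM. The subunits made inside mitochondria, such as MT-CO1 and MT-ATP6, were not analysed here.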

How the data were processed

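Total RNA and ribosome-protected RNA of SW13 cells were sequenced as 1 library each, read from both ends at 50 nt, per the labels' protocols. The values are FPKM per gene row as the authors deposited them, beside the authors' deposited log2 ratio, test statistic (a score), p-values and q-values. Builds hg19 and mm10 are listed in the submitters' processing notes, with bedtools 2.16.1, SAMtools 0.1.18, TopHat2 2.0.8b and Bowtie2 2.0.0.6 as tools. Not given in the sources used here: the program behind the table, how it counted reads with several matches, its transcript forms and its scaling between libraries. FPKM keeps no depth, so no counting interval is given.

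The ratio, its centring, the filter (mean FPKM of at least 10, status other than FAIL or HIDATA) and the 2-fold limit are defined with the results. The calculation was tested on simulated footprint levels with known folds, made from tested genes with an RNA level of at least 10 FPKM. That test does not bear on the choice of filter or on genes that passed through ribosome profiling alone. For all 39 members the normal distribution (two-sided) gave the deposited p-value from the statistic to within 0.001, so the standard error of a deposited ratio was taken as ratio over statistic. Gene classes and promoters came from RefSeq (GRCh38.p14) and coding lengths from GENCODE 29, both matched by symbol and without converting coordinates. All members were named, and from each other list the most abundant tested gene plus the extremes of the ratio. Near-identical copies, rows at a shared locus, motifs and further examples were chosen after values were seen. The members and lists were chosen with earlier results of these data known. Python 3.11.15, pandas 2.3.3, NumPy 2.4.6 and SciPy 1.17.1 were used.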

Additional observations from a re-analysis of the deposited data

How the results depend on the processing

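The results were recomputed under 14 alternatives, 12 planned and 2 chosen after seeing the data (all 39 members, and near-identical copies added). No alternative turned the median of the members or of any complex below 0 or put a member at least 2-fold below the median gene. The filter on mean FPKM set the reference gene. A minimum of 1 lowered the subtracted median by 0.55 on the log2 scale and put 24 members at least 2-fold above (14.7% of protein-coding genes). A minimum of 30 raised it by 0.18, left 6 (8.76%), and put the median of complex III at 0.0016 in place of 0.61. With no filter the subtracted median was 0.67 lower, which by construction raised every member alike, by over 1.5 times: 24 members were at least 2-fold above (15.8%), and the medians were 1.18 for all members, 1.40 for complex IV and 1.18 for ATP synthase. Scaling each library to its FPKM outside small RNA genes, without centring, gave 16 members, against 25.0% of protein-coding genes, and no centring alone gave 15, against 21.9%. Scaling ribosome profiling FPKM to coding length raised the median levels of the F1 head, c ring and peripheral stalk to 369, 108 and 118 FPKM and moved 17 of 35 members by over 1.5 times. In the alternatives other than this and the removal of the filter, none of the 35 members that passed the filter moved by that much, and at the minimum of 10 FPKM CYCS passed only with its copy added. No paired analysis was possible because each group has 1 library. Read depth is unknown, and the differences in the 8 pairs of subunits taken were within the authors' model errors.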
